A study of Mus musculus with 4 samples.

Results

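Neuron-enriched microRNAs (miRNAs) were followed across neural stem and progenitor cells derived from mouse embryonic stem cells (ESCs). The group was chosen by name on the array, with earlier results of these data known. It comprised the guide strands called miR-124, miR-7a, miR-7b, miR-128, miR-132, miR-137, miR-212, miR-218, miR-129 (both the 5p and the 3p arm) and miR-326, which made 11 of the 611 mouse miRNAs on the array. The study measured mature miRNAs on 4 single-colour Agilent arrays, with 1 array for each of 4 groups. The first pair of groups came from secondary neurospheres (passage 1, day 12 after the embryoid body stage), titled NFIA OE (NFIA overexpression) and control. The other pair came from primary neurospheres (passage 0, day 6), again titled NFIA OE and control. In all 4 groups, NFIA-overexpressing and control cells had been cultured as mixed spheres and were separated by fluorescence-activated sorting. The promoter of the transgene, the number of ESC clones and any other allele are not given in the sources used here.

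The labels disagree about NFIA status. By source name, both arrays titled NFIA OE hold WT cells, and both arrays titled control hold cells of the NFIA OE line. Groups here follow the titles. If the source names are correct, every difference between titles turns its sign, whereas differences between passages stay as printed. NFIA mRNA is not on a miRNA array, so no probe checks the label.

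A miRNA is cut from a hairpin precursor, and its guide strand directs Argonaute proteins to messenger RNAs that pair with the seed, bases 2 to 8. In neural development miR-124 is the classic neuronal miRNA: it represses non-neuronal transcripts, among them Ptbp1, a splicing repressor, and phosphatases that work with REST, the repressor of neuronal genes. miR-7 is enriched in neuroendocrine and hypothalamic cells, miR-128 dampens neuronal excitability, miR-218 is enriched in motor neurons, and miR-132 and miR-212 are transcribed from 1 locus in response to CREB. miR-137 acts in the proliferation and differentiation of neural progenitors, and miR-129 acts on neuronal excitability. NFIA itself is a transcription factor of the onset of gliogenesis.

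Mature sequences were taken from RefSeq on build GRCm38.p6, in which 10 of the 11 members matched an entry by name. The exception was miR-124, so its sequence and hairpin positions are not given. miR-326 matched but is not printed. The other sequences are shown because near-identity over the whole mature strand limits which members an array can separate. Shared seeds bear on which messenger RNAs a member pairs with. The seed is in capitals and each sequence runs 5′ to 3′.
miR-7a: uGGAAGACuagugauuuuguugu
miR-7b: uGGAAGACuugugauuuuguuguu
miR-132: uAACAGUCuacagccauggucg
miR-212: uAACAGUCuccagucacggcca
miR-129-5p: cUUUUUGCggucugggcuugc
miR-129-3p: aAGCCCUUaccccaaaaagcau
miR-218: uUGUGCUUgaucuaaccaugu
miR-128: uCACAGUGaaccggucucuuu
miR-137: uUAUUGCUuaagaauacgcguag

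miR-7a and miR-7b share a seed and differ by A10U, counted from 1 at the 5′ end with the miR-7a base first, plus 1 further base at the 3′ end of miR-7b. Cross-hybridisation between their probes was not tested, so the identity of a weak miR-7b signal is uncertain. miR-132 and miR-212 also share a seed and differ at 5 of 22 positions outside it. Their hairpins lie 203 bases apart on the plus strand, Mir212 at chr11:75173388-75173478 and Mir132 at chr11:75173682-75173747. Both miR-129 arms can come from Mir129-2 at chr2:94241364-94241453 on the minus strand, which overlaps the long noncoding RNA Mir670hg. The 5p arm has a further copy in Mir129-1 at chr6:29022619-29022691 on the plus strand. miR-7a comes from Mir7-1, within the protein-coding gene Hnrnpk (chr13:58392779-58392886, minus strand), and from Mir7-2 (chr7:78888277-78888373, plus strand). miR-218 has 1 copy within Slit2 (chr5:48223942-48224051, plus strand) and 1 within Slit3 (chr11:35616816-35616925, plus strand). The miR-128 copies lie within R3hdm1 (chr1:128202361-128202430, plus strand) and Arpp21 (chr9:112118636-112118711, minus strand). Mir137 is at chr3:118433857-118433929 on the plus strand and overlaps no other annotated gene. An array reads the mature strand, so copies of one miRNA cannot be told apart here.

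Apart from controls, an array held 13000 spots, of which 265 to 300 carried an outlier flag and 0 were saturated. Detection of a probe required at least 50% of its unflagged spots to be well above background, and detection of a miRNA required 1 such probe. The 4 arrays detected 186 to 220 mouse miRNAs each and 153 on all 4. Levels are log2 of the processed spot intensity relative to the array's own 75th percentile over probes detected on all arrays. This percentile was 369 and 443 intensity units on the secondary NFIA OE-titled and control-titled arrays, and 261 and 167 on the primary NFIA OE-titled and control-titled arrays. miR-9, a marker of neural progenitors, was well above background on all 4 arrays. Blood markers were not detected on any array (0 of 6), nor were miR-200a, miR-200b, miR-200c, miR-141, miR-429 and miR-122 of the 7 epithelial and endocrine markers, while miR-375 was detected on the primary control-titled array. In sorted bulk cells, fewer cells of a type and less RNA per cell cannot be told apart.

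Of the 11 neuronal miRNAs, 6 were detected on all 4 arrays: miR-124, miR-7a, miR-128, miR-218, miR-129-5p and miR-129-3p. miR-137 was detected on 3 arrays and missed on the primary NFIA OE-titled array. miR-132 was detected on 2, both secondary. miR-212 and miR-7b were detected on 1, the secondary control-titled array, and miR-326 on 0. The number detected was 8 on the secondary NFIA OE-titled array, 10 on the secondary control-titled array, 6 on the primary NFIA OE-titled array and 7 on the primary control-titled array. Over all 611 mouse miRNAs the numbers detected were 207, 209, 220 and 186 in that order. The secondary control-titled array thus detected every member except miR-326. It also had the highest 75th percentile of the 4.

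**Figure D1:**
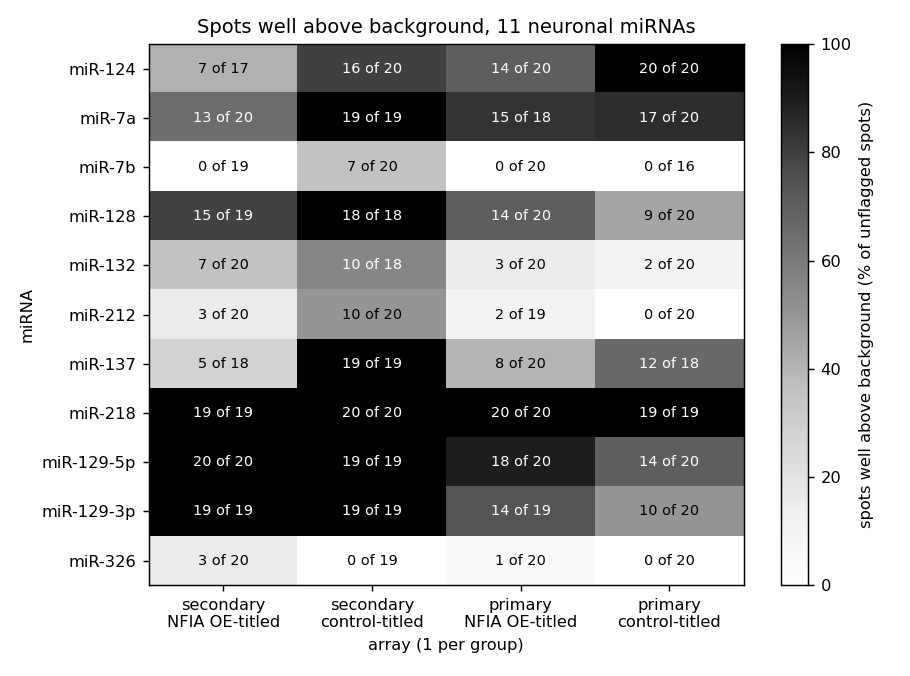
Share of unflagged spots well above background (percent) for each of the 11 neuronal miRNAs on each array, over all probes of a miRNA. miR-124 had 20 of 20 spots above background on the primary control-titled array and 7 of 17 on the secondary NFIA OE-titled array, and miR-326 stayed dim on all 4.

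miR-124 was brightest, relative to its array, in primary control-titled cells. Its processed intensity was 136.7 units on the secondary NFIA OE-titled array, 239 on the secondary control-titled array, 194 on the primary NFIA OE-titled array and 267 on the primary control-titled array. Its levels were -1.43, -0.89, -0.42 and 0.67 in that order. The NFIA OE-titled array was the lower of the pair at both passages, and both secondary arrays were below both primary arrays.

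miR-7a gave a like profile. Its intensity was 68.9 units on the secondary NFIA OE-titled array, 141 on the secondary control-titled array, 106 on the primary NFIA OE-titled array and 115 on the primary control-titled array. Its levels were -2.42, -1.65, -1.29 and -0.54 in that order. The order of the 4 arrays was that of miR-124, and the 2 passages did not overlap in level, although the secondary control-titled array had the highest unscaled intensity.

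miR-128 and miR-218 varied less in level between passages. The levels of miR-128 were -3.46, -2.95, -3.04 and -2.85, from secondary NFIA OE-titled to primary control-titled cells. In level the secondary NFIA OE-titled array stood below the other 3, which lay close together. Unscaled this was not so, with miR-128 intensities of 33.4, 57.5, 31.8 and 23.2 units in that order. The value of the primary control-titled array lay near its lowest detected intensity, 17.7 units. The levels of miR-218 were -1.77, -1.88, -1.92 and -0.97 in that order. In level the primary control-titled array stood above the other 3. Unscaled it did not, with miR-218 intensities of 110, 122, 70.3 and 87.2 units in that order.

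The 2 arms of miR-129 ran the other way between passages. miR-129-5p had levels of -2.06 in secondary NFIA OE-titled and -1.90 in secondary control-titled cells, against -2.65 in primary NFIA OE-titled and -2.49 in primary control-titled cells. miR-129-3p had levels of -0.35 and -0.04 in secondary NFIA OE-titled and control-titled cells, against -0.74 and -0.78 in primary NFIA OE-titled and control-titled cells. For each arm both secondary arrays were above both primary arrays. The SE over spots of these 6 miRNAs was 0.013 to 0.068 log2 per array, which is technical error within an array.

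**Figure D2:**
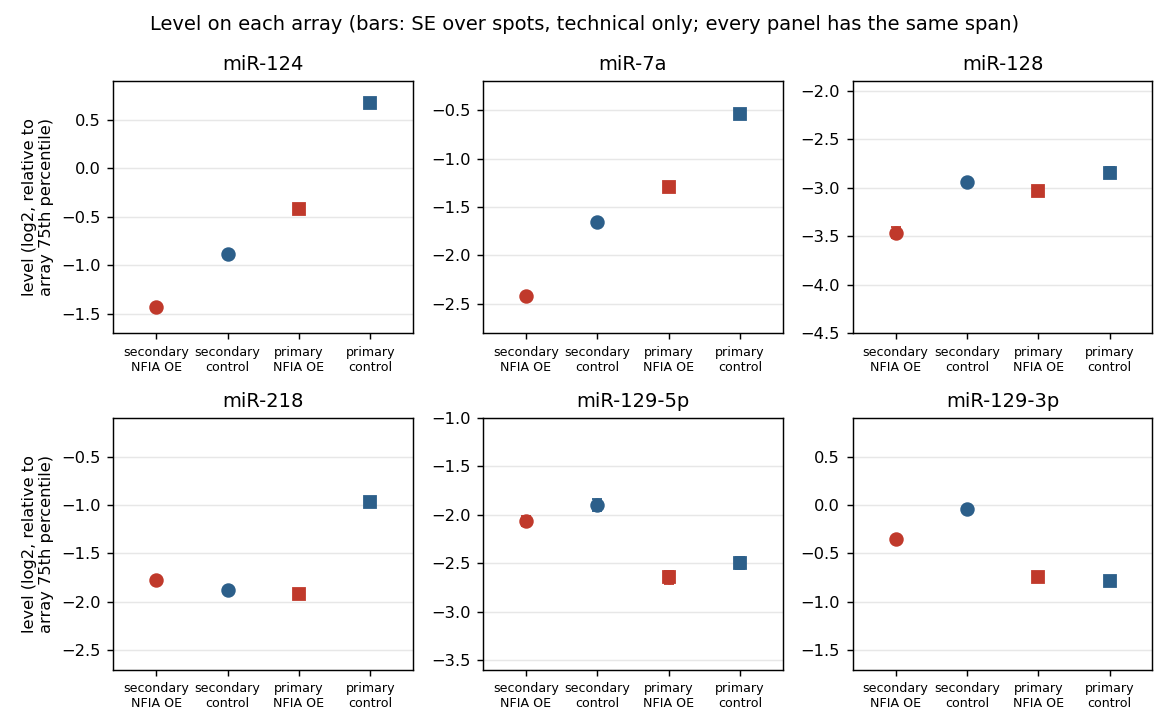
Level (log2 of intensity relative to the array's 75th percentile) of the 6 neuronal miRNAs detected on all 4 arrays, 1 panel each with its own axis range. Points are single arrays and bars the SE over spots, mostly smaller than the symbols. miR-124 and miR-7a step up toward the primary control-titled array, and both miR-129 arms are lower on the primary arrays.

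The comparison of titles asks what NFIA status does within the mixed cultures. All 6 measured members were lower on NFIA OE-titled than on control-titled arrays, except that without any scaling between arrays miR-129-5p and miR-129-3p were higher by 0.03 and 0.06. None of the 6 passed the test: 0 were called in limma's additive fit of title and passage over all 153 miRNAs, at a Benjamini-Hochberg adjusted p under 0.05. In that fit 2.61% of the 153 miRNAs were called, 1.31% higher and 1.31% lower. At an unadjusted p under 0.05, 2 of the 6 were lower, against 5.88% of all miRNAs tested. The median difference of the 6 was -0.39 log2, beside -0.00 for all 153, of which 50.3% were below 0. The members were chosen with earlier results of these data known, so these comparisons with all miRNAs are descriptions only. The median stayed below 0 under all 12 alternatives, between -0.52 and -0.20. Its gap to the median of all miRNAs, -0.385 as reported, was smaller under some of them. With normexp background correction the gap was -0.17. With no filter on detection it was -0.085, from -0.42 for the members and -0.34 for all 611 miRNAs.

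miR-124 had the widest title difference of the 6. Its mean level was -0.93 on NFIA OE-titled and -0.11 on control-titled arrays, a difference of -0.82 ± 0.29 log2 (SE of the fit, 2 arrays per title). This is 1.77-fold less on the NFIA OE-titled arrays, with a limma p of 0.00609 and an adjusted p of 0.147. With the authors' processed values the difference was -0.95 and the limma adjusted p 0.0439. miR-7a averaged -1.86 on NFIA OE-titled and -1.09 on control-titled arrays, a difference of -0.76 log2 with a limma p of 0.0107 and an adjusted p of 0.148. The other 4 had title differences of -0.42 (miR-218), -0.35 (miR-128), -0.16 (miR-129-5p) and -0.13 (miR-129-3p), with limma adjusted p-values from 0.886 to 0.92. Of these, the differences of miR-218 and miR-128 were larger than 1 SE and those of the miR-129 arms smaller.

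Within single pairs of arrays, which allow no test, miR-7a differed by nearly the same amount at each passage: -0.77 in secondary and -0.76 in primary cells. miR-124 differed by -0.54 in secondary and by -1.10 in primary cells. miR-218 was 0.11 higher in secondary NFIA OE-titled than secondary control-titled cells, and 0.95 lower in primary NFIA OE-titled than primary control-titled cells. The secondary value turned below 0 under 4 of 11 alternatives, to -0.18 with the 75th percentile over all probes, -0.16 without scaling, -0.016 with quantile normalization and -0.013 with the authors' processed values. Its 2 probes gave nearly equal values, at 0.12 and 0.10 in secondary cells. miR-128 differed by -0.52 in secondary and -0.19 in primary cells. In each pair 5 of the 6 were below 0, beside 58.8% of all 153 miRNAs in secondary and 51.0% in primary cells. In the primary pair this count was 3 of 6 without scaling and 6 of 6 under 6 of the 11 alternatives, median centring and the authors' processed values among them. In the secondary pair it was 5 or 6 of 6 under each of the 11. A test of whether a title difference changed with passage was not possible, because that interaction is the residual of the fit.

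**Figure D3:**
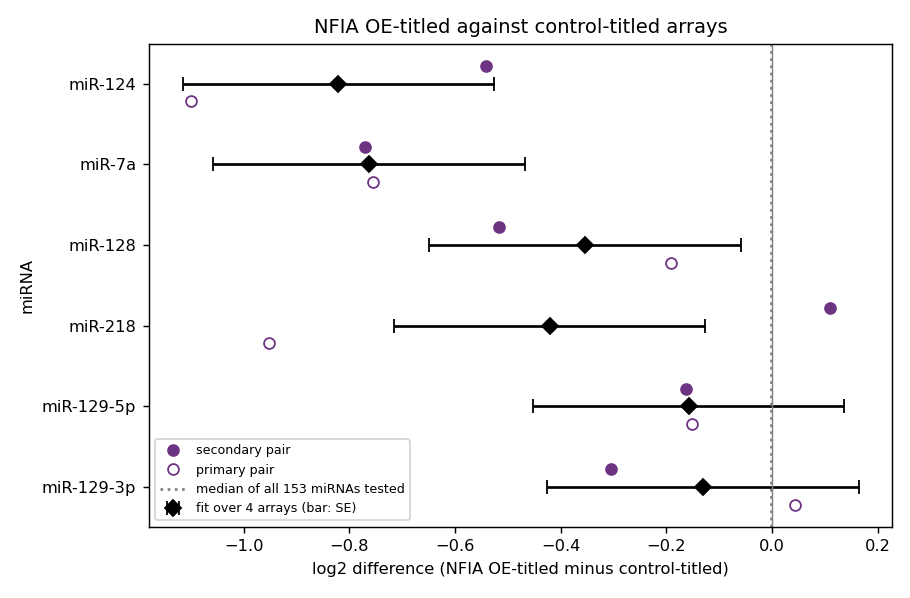
Log2 difference between NFIA OE-titled and control-titled arrays for the 6 neuronal miRNAs, with the fitted value and its SE of 0.29 beside the single pair at each passage. miR-124 at -0.82 and miR-7a at -0.76 lie farthest from the median of all miRNAs tested, and miR-218 has pairs on both sides of 0, although its secondary pair turns below 0 under 4 of 11 alternatives.

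A scaling factor for a whole array cancels when 2 members are compared by their differences. On that basis the title difference of miR-124 was 0.66 log2 below that of miR-129-5p, by a value of -0.38 in the secondary pair and -0.95 in the primary pair. The title difference of miR-7a minus that of miR-129-5p was -0.60, with -0.61 in the secondary pair and -0.60 in the primary pair. Both comparisons kept their sign in both passages, and neither was tested.

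Several members were above background on one side of a pair only, and for these a fold is a lower bound. It sets the bright array's mean level against the higher of the dim probe's own level and the lowest detected level of the dim array. miR-137, at passage 1, had a processed intensity of 19.3 units in NFIA OE-titled and 61.8 in control-titled cells. Over the 1 probe detected on both of those arrays it differed by -1.27 log2, or 2.41-fold. In primary cells miR-137 was not well above background on the NFIA OE-titled array, at 19.1 units, and had 20.9 units on the control-titled array. The dim probes' own levels, -3.76 and -3.80, were above the lowest detected level of that array, -3.97. The fold is therefore their measured difference and not a bound: 1.71-fold less in primary NFIA OE-titled cells, and 1.09-fold less without scaling.

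The remaining dim members had smaller bounds between titles. miR-212 had intensities of 11.2 units in secondary NFIA OE-titled and 19.7 in secondary control-titled cells, at least 1.28-fold less in the NFIA OE-titled cells. miR-7b had 6.79 units in secondary NFIA OE-titled and 20.6 in secondary control-titled cells, at least 1.12-fold less in the NFIA OE-titled cells. miR-132 had 16.3 units in secondary NFIA OE-titled and 24.4 in secondary control-titled cells and differed by -0.17 over the 1 probe detected on both. Against primary cells, where it had 10.3 units (NFIA OE-titled) and 10.7 units (control-titled), miR-132 gave no bound above 1 with scaling, and at least 1.54-fold more in secondary cells without it. miR-326 was detected on no array, with at most 3 of 20 spots well above background and 7.16 to 14.6 units, and has no fold. miR-137 and miR-132, detected on both secondary arrays, were thus dimmer on the NFIA OE-titled one, without a test. In that pair 58.8% of the 153 miRNAs detected on all 4 arrays were also lower. miR-212 and miR-7b were detected on the secondary control-titled array alone, so the detection rule fixed their direction.

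Some lists of cell type markers differed between titles, and not all in 1 direction. Of 11 mesenchymal, muscle and endothelial markers, 3 were detected on each NFIA OE-titled array and 1 on each control-titled array. These were miR-199a-3p on all 4 arrays, and miR-199a-5p and miR-214 on the NFIA OE-titled arrays alone. Their summed intensity, in multiples of the array's 75th percentile, was 1.24 (secondary) and 1.14 (primary) on NFIA OE-titled arrays, against 0.231 and 0.314 on control-titled arrays. The defining muscle and smooth muscle markers miR-1, miR-133a, miR-133b, miR-206, miR-143 and miR-145, and both endothelial miR-126 strands, were not detected on any array. The 4 neural progenitor markers, of which miR-124 is 1, summed to 6.38 (secondary) and 2.14 (primary) on NFIA OE-titled arrays, against 9.99 and 2.74 on control-titled arrays. Most of each sum was miR-9 and miR-9*. All 4 had title differences below 0, and miR-92b was called, at -1.05 log2 over 1 of its 4 probes. No miRNA was called lower by title under quantile normalization or without scaling. By passage the list was split, with 2 called higher and 2 called lower. Astrocyte-enriched markers, 6 or 7 of 7 detected per array, summed to 4.38 and 4.40 on NFIA OE-titled arrays, against 4.47 and 3.52 on control-titled arrays. Oligodendrocyte-lineage markers, with 1 or 2 of 3 detected and miR-338-5p on no array, summed to 0.929 and 0.955 on NFIA OE-titled arrays, against 1.22 and 1.90 on control-titled arrays. Most of each sum was miR-219, at 234 units in primary NFIA OE-titled and 311 in primary control-titled cells. miR-338-3p went the other way in primary cells, detected on the NFIA OE-titled array (18.4 units) and missed on the control-titled one (10.2). In secondary cells miR-338-3p had 44.0 units (NFIA OE-titled) and 57.3 (control-titled). The part of these lists in the title differences was not tested. Array position on the slide also goes with title and passage, so it cannot be told apart from them.

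The comparison of passages asks how neurospheres at day 12 differed from those at day 6. miR-124 and miR-7a fell in secondary neurospheres, and the other 4 measured members did not pass the test. With 2 of 6 called lower and 0 higher, the members stand beside 45.8% called among all 153 miRNAs, 32.7% lower and 13.1% higher, so their share is near the background. The median passage difference of the 6 was -0.32 log2, beside -0.39 for all 153, and 4 of the 6 were below 0, beside 73.2% of all. At an unadjusted p under 0.05, 2 of the 6 were lower, beside 37.3% of all. This shift of all miRNAs depends on the scaling, and both medians are above 0 under the 75th percentile over all probes, median centring, quantile normalization, no scaling or the authors' processed values.

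miR-124 averaged -1.16 in secondary and 0.12 in primary neurospheres, a difference of -1.28 ± 0.29 log2 (SE, 2 arrays per passage). It was 2.44-fold lower in secondary neurospheres, with a limma adjusted p of 0.000133. Its single pairs gave -1.01 between the NFIA OE-titled arrays and -1.56 between the control-titled arrays. miR-7a averaged -2.03 in secondary and -0.92 in primary neurospheres, a difference of -1.12 log2 or 2.17-fold lower in secondary, with a limma adjusted p of 0.000958. Its pairs gave -1.12 (NFIA OE-titled) and -1.11 (control-titled). The fitted values of both miRNAs were below 0 under all 12 alternatives, but the control-titled pair of miR-7a turned to 0.29 without scaling. The size hung on the scaling: miR-124 lay between -1.28 and -0.33 and was called in 8 of the 12, and miR-7a lay between -1.12 and -0.17 and was called in 7. With the authors' processed values miR-124 differed by -0.65 (limma adjusted p 0.0748).

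The miR-129 arms were higher in secondary neurospheres without passing the test as reported, although some alternatives called them. miR-129-5p averaged -1.98 in secondary and -2.57 in primary neurospheres, a difference of 0.59 log2 with a limma adjusted p of 0.0953. miR-129-3p averaged -0.20 in secondary and -0.76 in primary neurospheres, a difference of 0.57 with a limma adjusted p of 0.109. With the authors' processed values these became 1.22 (limma adjusted p 0.000354) and 1.19 (limma adjusted p 0.00049). With the median over spots miR-129-5p was called too (0.67, limma adjusted p 0.0384), and with normexp background correction it was -0.03. miR-218 differed by -0.38 and miR-128 by -0.26, with limma adjusted p-values of 0.297 and 0.495, and both were above 0 under the authors' processed values, at 0.25 and 0.40. Between the control-titled arrays miR-218 differed by -0.91, against 0.15 between the NFIA OE-titled arrays. The control-titled pair turned to 0.49 without scaling and 0.011 with the 75th percentile over all probes, and the NFIA OE-titled pair to -0.031 with normexp.

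**Figure D4:**
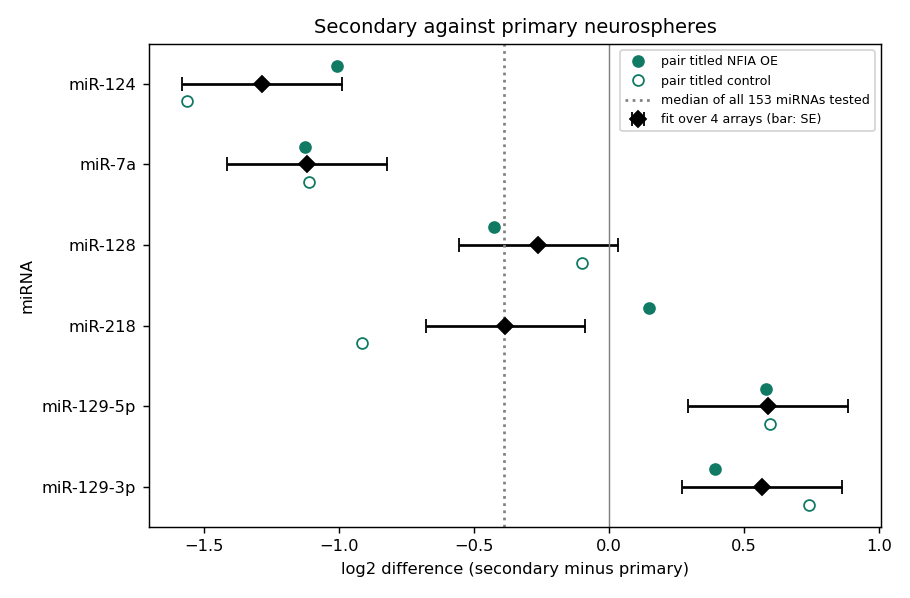
Log2 difference between secondary and primary neurospheres for the 6 neuronal miRNAs, with the fitted value and its SE of 0.29 beside the single pair for each title. miR-124 at -1.28 and miR-7a at -1.12 lie below the median of all miRNAs tested at -0.39, and the miR-129 arms at 0.57 and 0.59 lie above 0.

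The gap between members did not depend on how whole arrays were scaled. The passage difference of miR-129-5p minus that of miR-124 was 1.87 log2, with 1.59 between NFIA OE-titled arrays and 2.16 between control-titled arrays. Against miR-7a the gap was 1.70, with 1.71 between NFIA OE-titled and 1.70 between control-titled arrays. Over the alternatives that do not merely rescale whole arrays, the gap to miR-124 ran from 0.99 to 2.25 and the gap to miR-7a from 0.83 to 1.94. miR-129-5p therefore stood above both, relative to primary cells, under each of those settings.

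**Figure D5:**
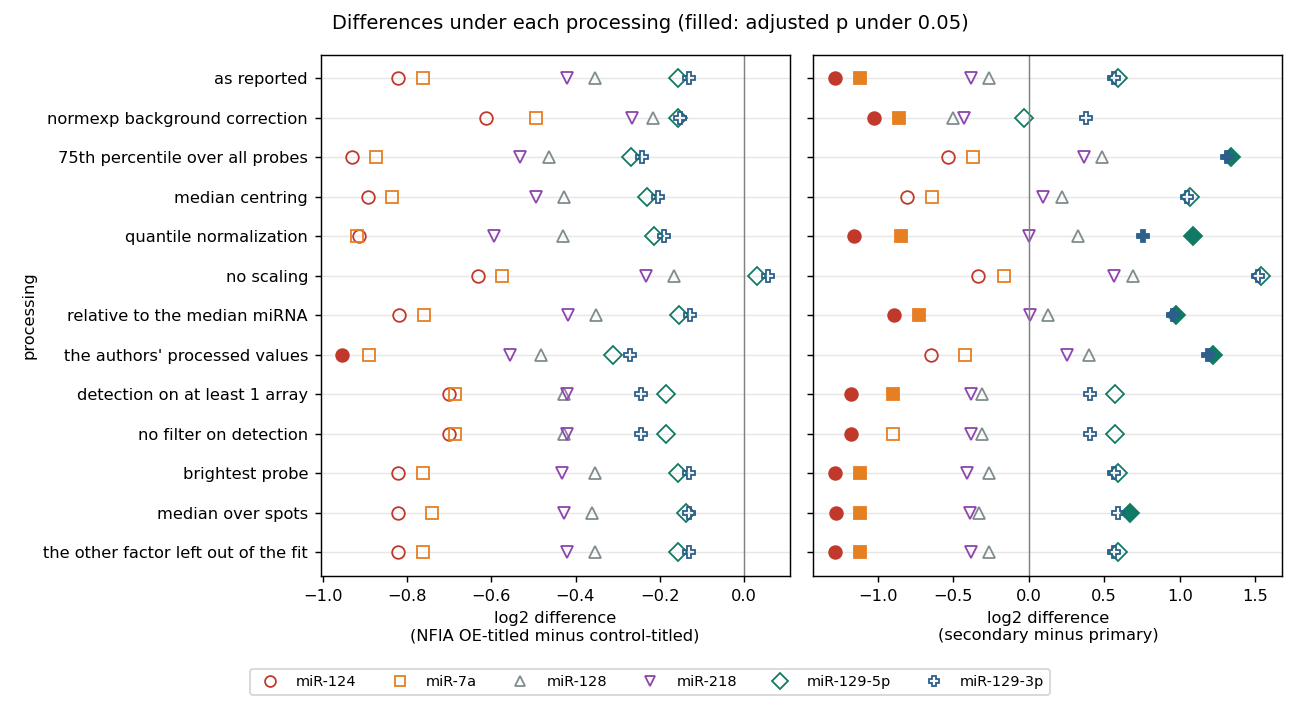
Fitted log2 differences of the 6 neuronal miRNAs between titles (left) and between passages (right) under the reported processing and 12 alternatives, with filled symbols for a limma adjusted p under 0.05. The passage values of all 6 slide together when 1 scaling factor per array changes, from -1.28 to -0.33 for miR-124. Under quantile normalization they move by unequal amounts. miR-129-5p keeps to the right of miR-124 under each processing.

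Markers of pluripotent cells moved with passage. Of the 12 on the array, 7 were detected on the secondary NFIA OE-titled and 1 on the secondary control-titled array, against 10 on each primary array. Their summed intensity, in multiples of the array's 75th percentile, was 0.427 and 0.184 on the secondary NFIA OE-titled and control-titled arrays, against 4.28 and 5.01 on the primary ones. miR-291a-5p and miR-292-5p were not detected on any array. The part of this in the passage differences was not tested.

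Profiles over the 4 arrays were compared by the root mean square distance between levels, after subtracting each miRNA's own mean. This measure is a description over 4 arrays and 152 other miRNAs. The nearest profile to miR-124 was that of miR-7a, at 0.168 log2, followed by miR-34c at 0.195 and miR-135b at 0.205, against a median distance of 0.630. miR-7a was nearest to miR-124, then miR-135b (0.213) and miR-20b (0.221). miR-7a ranked 1 to 7 among the miRNAs nearest to miR-124 over the alternatives. miR-129-5p was nearest to miR-689 at 0.0696, then miR-129-3p at 0.0860 and miR-582-5p at 0.127. Under normexp background correction, miR-129-3p ranked 49 from miR-129-5p. miR-128 was nearest to miR-15b (0.0614), miR-340-5p and miR-16, and miR-218 to miR-467f (0.172), miR-1187 and miR-219. The distance between miR-124 and the miR-129 arms was 1.00 (5p) and 1.01 (3p), so the 6 members did not share a profile.

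Passenger strands of the same hairpins were dim. The array carried miR-124*, miR-7a*, miR-218-1* and miR-218-2*, and 0 of these 4 were detected on any array. miR-124* had 4.15 units in secondary NFIA OE-titled, 10.1 in secondary control-titled, 9.03 in primary NFIA OE-titled and 10.2 in primary control-titled cells, none well above background.

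Other neuronal miRNAs were counted from a list of 16. Of these, miR-9, its partner miR-9* and miR-153 were detected on all 4 arrays. By title 0 of the 3 were called. miR-153 differed by -0.80 (limma p 0.00767, adjusted p 0.147), close to miR-124, and miR-9 and miR-9* differed by -0.32 and -0.39. By passage miR-9 rose in secondary neurospheres by 1.87 log2 (3.65-fold, limma adjusted p 3.82e-08) and miR-9* by 2.60 (6.06-fold, limma adjusted p 1.29e-13), whereas miR-153 differed by -0.65 (limma adjusted p 0.0612). miR-433 was detected on both primary arrays and neither secondary array, at least 3.44-fold less in secondary neurospheres, and at least 1.78-fold less without scaling. miR-488 was detected on both secondary arrays and neither primary array, at least 1.06-fold more in secondary neurospheres, and at least 2.04-fold more without scaling. miR-384-5p was detected on the secondary control-titled array alone, at least 1.06-fold less in secondary NFIA OE-titled cells. miR-598 was missed on the primary control-titled array alone, at 12.9 units against 23.8 in primary NFIA OE-titled cells. Its bound there was 0.86-fold with scaling, so no rise is shown, and at least 1.34-fold more without scaling. Between titles, over probes detected on both arrays, miR-598 differed by 0.12 and miR-488 by -0.44 in secondary cells. miR-433 differed by -0.06 in primary cells. None of these was tested. The effect of other scalings on miR-9, miR-9* and miR-153 was not computed.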

How the data were processed

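Spot intensity on a linear scale was deposited by the authors, extracted with Feature Extraction 10.5.1.1 and background-subtracted, per the file headers; it is not scaled between arrays. Their table of processed intensity values holds the scanner files' total gene signal over an array constant (31.0, 33.7, 34.1 and 20.3 for secondary NFIA OE-titled, secondary control-titled, primary NFIA OE-titled and primary control-titled arrays) and is neither logged nor centred. Its column medians were 0.816, 0.700, 0.830 and 0.882 in that order. Why those constants were used is not known here. Label protocols name a miRNA labelling kit and Cy3.

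Unflagged spots were averaged per probe, the 75th percentile of the 252 probes that all 4 arrays detected was divided out of each array, and log2 was taken. A miRNA was the mean of its probes detected on every array compared. Each of the 6 members has 2 probes, of which miR-218 used both and the others 1. The test was limma 3.58.1 in R 4.3.3 with title and passage as additive terms over 153 miRNAs, which left 1 residual degree of freedom. The prior was infinite, so every miRNA was judged against 1 pooled SD of 0.29 log2, and the residual also holds any interaction. The arrays of a passage share 1 mixed culture and all 4 share 1 slide. No group has a replicate, so a p-value reflects the spread among these 4 arrays alone, and their number limits the precision. The fit was also run on simulated data with 1 equal spread for every miRNA and a title effect alone. That simulation cannot check the pooled SD or the additive terms, because it assumes both.

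All members were named, partner strands and other neuronal miRNAs came from fixed lists, and the 3 nearest profiles were named per member. Members and lists were chosen with earlier results of these data known. Alternatives changed the background correction, the scaling, the source of values, the filter, the probe and the spot summary, and the terms of the fit. Lower bounds without scaling and the alternatives for profile distances and gaps between members were chosen after seeing the data.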

Additional observations from a re-analysis of the deposited data

Results flagged for a closer look

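miR-218 differed between titles by 0.11 log2 in secondary neurospheres and by -0.95 in primary neurospheres, so the pairs lay on opposite sides of 0. The secondary value fell below 0 under 4 of 11 alternatives (-0.18 with the 75th percentile over all probes, -0.16 without scaling, -0.016 with quantile normalization and -0.013 with the authors' processed values), and both pairs then lay below 0. Its passage difference was likewise 0.15 between NFIA OE-titled arrays and -0.91 between control-titled arrays. These signs also depended on the processing: the control-titled pair was 0.49 without scaling and 0.011 with the 75th percentile over all probes, and the NFIA OE-titled pair was -0.031 with normexp. Both contrasts hold the primary control-titled array, on which miR-218 was highest in level. Its unscaled intensity there, 87.2 units, was below that of both secondary arrays. miR-129-3p differed between titles by -0.31 in secondary and 0.044 in primary neurospheres, and the primary value kept its sign under 5 of 11 alternatives. In each case 1 array stands against 1 array, and the difference between the pairs was not tested.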

How the results depend on the processing

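Each group had 1 array, so no paired analysis was possible other than the reported fit itself. That fit pairs the arrays of a shared culture through its passage term. The title calls among members were 0, and 1 with the authors' processed values (miR-124). Over all miRNAs the 4 title calls became 2 without scaling, without a filter on detection, with quantile normalization or with the 75th percentile over all probes, and 0 with median centring or with passage left out. The 2 passage calls among members became 0 with median centring or no scaling, 4 with quantile normalization or relative to the median miRNA, 3 with the median over spots (miR-129-5p added, higher), and 1 with no filter. With the 75th percentile over all probes or the authors' processed values 2 were called, both higher (miR-129-5p and miR-129-3p). The 70 passage calls over all miRNAs became 30 with the 75th percentile over all probes, 0 with median centring, 21 with no scaling and 108 with detection on at least 1 array. Their split of 20 higher and 50 lower became 25 and 5 (75th percentile over all probes), 21 and 30 (quantile), 20 and 1 (no scaling), 26 and 27 (relative to the median miRNA), 39 and 17 (authors' processed values), and 14 and 73 (normexp). The median passage difference of the members turned to 0.43 (75th percentile over all probes), 0.16 (median centring), 0.16 (quantile), 0.63 (no scaling), 0.067 (relative to the median miRNA) and 0.33 (authors' processed values). Under the same settings miR-128 turned to 0.49, 0.22, 0.32, 0.69, 0.13 and 0.40 between passages. miR-218 turned to 0.37 (75th percentile over all probes), 0.10 (median centring), 0.57 (no scaling), 0.0065 (relative to the median miRNA) and 0.25 (authors' processed values). miR-129-5p turned to -0.031 with normexp. Without scaling the title differences of miR-129-5p and miR-129-3p turned to 0.031 and 0.058. A change of 1 scaling factor per array shifts all miRNAs of a contrast by 1 amount, by its construction. Quantile normalization is not such a factor. It moved the passage difference of miR-124 from -1.28 to -1.16 and that of miR-128 from -0.26 to 0.32. The cause of the other changes was not tested. Dim members rest on few spots above background, which limits them to bounds.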
